A study of Mus musculus with 15 samples.

Results

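Endothelial cells line the vessels, and the hemangioblast is the mesodermal progenitor that gives rise to both endothelium and blood. Cells carrying transcripts of these lineages were chosen by their own counts. Among barcodes with fewer than 10% mitochondrial UMIs (unique molecular identifiers, which count RNA molecules), fewer than 50000 UMIs and 200 to 7000 detected genes, a cell was a member if it held at least 1 UMI of at least 3 of the 7 genes Kdr, Etv2, Cdh5, Egfl7, Ramp2, Plvap and Tal1. The 3 embryonic globins Hbb-bh1, Hba-x and Hbb-y also had to make up less than 0.2% of its UMIs. The rule was met by 9435 of 93701 kept cells, 8365 of them in 12 control embryos and 1070 in 3 Mesp1 KO embryos. The levels of these 7 genes and of the globins, and every contrast between members and other cells, were fixed in part by this choice and are given as description. Where a fit of such a contrast is used, its number of calls only summarizes the values, and it supports nothing about the members.

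The members came from single-cell RNA-seq of 15 whole mouse embryos of strain C57/BL6, each dissociated as 1 library and grouped into an early stage (E6.0 to E6.5), a middle stage (from late E6.5 until early E7.5) and a late stage (late E7.5 and E7.75). Every embryo was described as carrying the Smarcd3-F6::eGFP transgene at Hipp11, an enhancer reporter of early cardiac progenitors, and all but 2 carried the Rosa26R Ai14 reporter, which makes tdTomato in any cell whose ancestors expressed Cre. The 5 early, 3 middle and 4 late controls had at least 1 wild-type Mesp1 allele (Mesp1 Cre/+ or +/+). Each stage had 1 Mesp1 KO embryo (Mesp1 Cre/Cre), in which Cre inserted at Mesp1 disrupts the gene and is also the Cre that turns on Ai14. Either reporter could be present in 1 or 2 copies. Genotypes were read from yolk sac or a piece of other extra-embryonic tissue, and later embryos were freed of yolk, so the extra-embryonic tissue in a library, where the first vessels and blood form, can vary. The early KO was at E6.5 while 4 of the 5 early controls were at E6.0 or late E6.0, the middle KO was at E7.0 and the late KO at late E7.5. Middle control 3 and late control 1 lacked Ai14.

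Mesp1 encodes a transcription factor that marks nascent mesoderm leaving the primitive streak. In the yolk sac and the early embryo, Etv2 directs mesoderm expressing the VEGF receptor Kdr toward endothelium and blood, Tal1 and Lmo2 act in the hemangioblast and blood program, and junction genes such as Cdh5 and Pecam1 accompany the formation of vessels. Kdr also marks mesoderm more widely, and its presence alone does not define an endothelial cell.

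Library depth differed widely. The UMIs in kept cells ran from 7383353 in early control 4 to 358439911 in late control 2. The median member held 5107 UMIs in the late KO and 5386 in late control 3, the 2 libraries of the same experiment, against 24597 to 42952 in the other 13 embryos. By doublet scoring, 0% to 8.09% of members were probable doublets in early and middle embryos, 7.93% to 22.7% in late controls and 15.2% in the late KO. The number called in a library was set by its barcode count. Over all kept cells the share was 0.347% to 5.39% in early and middle embryos, 5.67% to 18.5% in late controls and 10.3% in the late KO. Barcode sequences recurred across libraries for 1038 members. Mesp1 had 0 UMIs in the members of all 3 KO embryos. Against a floor of 3 counts in each KO library, Mesp1 was at least 1174-fold lower in the early KO than the mean of its stage controls of 252 CPM (counts per 1000000 UMIs of the members summed in an embryo), and at least 387-fold lower in the middle KO (115 CPM in controls). Without middle control 1 the bound in the middle KO was 220-fold. In late controls 1 to 4 Mesp1 was at 40.9, 2.24, 1.57 and 10.2 CPM, and the floor of the late KO was 1.56 CPM. The bound was at least 8.79-fold lower with all 4 and 2.99-fold lower without late control 1.

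Promoter sequences of 4 of the 7 genes were taken from RefSeq (GRCm38.p6, 250 bases before the annotated start, written 5′ to 3′ on the gene's strand). They are shown because the factors encoded by the rule genes and their partners bind short cores: ETS factors such as Etv2 and Fli1 bind CAGGAA and the related core CCGGAA, the blood factors of the GATA family bind AGATAA, and Tal1 binds with partners at the E-box CATCTG. Capitals mark these letters on either strand, in the Kdr promoter at chr5:75978456-75978705 (minus strand), the Etv2 promoter at chr7:30635853-30636102 (minus strand), the Tal1 promoter at chr4:115056176-115056425 (plus strand) and the Egfl7 promoter at chr2:26580833-26581082 (plus strand).
Kdr: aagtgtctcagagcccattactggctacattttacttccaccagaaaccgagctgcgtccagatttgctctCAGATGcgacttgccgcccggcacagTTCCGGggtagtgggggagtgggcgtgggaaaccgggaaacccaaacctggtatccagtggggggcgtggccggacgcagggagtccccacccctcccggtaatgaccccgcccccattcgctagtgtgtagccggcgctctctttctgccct
Etv2: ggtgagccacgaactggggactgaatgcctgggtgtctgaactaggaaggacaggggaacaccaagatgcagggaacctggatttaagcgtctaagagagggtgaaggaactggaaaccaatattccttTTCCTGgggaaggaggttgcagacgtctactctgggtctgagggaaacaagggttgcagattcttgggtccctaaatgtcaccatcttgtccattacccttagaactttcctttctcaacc
Tal1: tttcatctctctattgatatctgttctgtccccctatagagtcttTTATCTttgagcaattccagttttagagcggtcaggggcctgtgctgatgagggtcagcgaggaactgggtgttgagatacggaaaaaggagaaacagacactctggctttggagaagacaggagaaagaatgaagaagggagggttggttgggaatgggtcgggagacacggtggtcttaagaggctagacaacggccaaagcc
Egfl7: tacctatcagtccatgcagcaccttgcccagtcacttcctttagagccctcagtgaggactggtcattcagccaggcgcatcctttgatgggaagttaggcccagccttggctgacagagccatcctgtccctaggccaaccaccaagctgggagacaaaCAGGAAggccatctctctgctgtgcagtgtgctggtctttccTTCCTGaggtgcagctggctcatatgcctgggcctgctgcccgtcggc
An ETS core stood in the Kdr, Etv2 and Egfl7 windows, and the Egfl7 window held CAGGAA on both strands. The table has 3 promoters of Egfl7, with 2, 1 and 0 matches of the 4 cores, and 2 of Tal1, with 1 and 0, and the promoter with the most matches is the one printed. Among 32851 promoters of the same length, CAGGAA was in 25.7%, CCGGAA in 12.03%, AGATAA in 9.99% and CATCTG in 14.4%. Of 24 endothelial genes outside the rule, 14 had a promoter in the table, with 16 promoters in all, and 9 of the 16 held CAGGAA. A match of these letters is a description of the sequence and not a bound site.

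Most members met the rule narrowly. Cells with exactly 3 of the 7 genes made up 5588 members (59.2%), and 2100 members had 5 or more. The commonest sets of 3 were Etv2, Egfl7 and Ramp2 in 1558 cells, Egfl7, Ramp2 and Plvap in 1384, Kdr, Etv2 and Egfl7 in 817, and Kdr, Egfl7 and Ramp2 in 682. Egfl7, a secreted protein of endothelium, was detected in 95.6% of members. Ramp2, which pairs with the adrenomedullin receptor, was detected in 81.1%, Etv2 in 64.0%, Kdr in 50.1%, Plvap, a protein of endothelial diaphragms, in 47.7% and Tal1 in 26.7%. Cdh5, the VE-cadherin of endothelial junctions and the most specific of the 7, was detected in 15.1%. The share with Cdh5 was 1.48% of members in early controls, 7.61% in middle controls and 23.3% in late controls. At the globin limit, 119 members had globins at 0.1% to 0.2% of UMIs, and 55 cells that met the gene rule lay just outside, at 0.2% to 0.3%.

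The name endothelial or hemangioblast was borne out only in part. The label was checked against the summed level of 24 endothelial genes and of blood progenitor genes that the rule did not use, across cells with increasing numbers of rule genes. Cells with 3 rule genes were also deeper than cells with none, at a median of 37748 against 4844 UMIs in early control 3 and 29441 against 9019 in late control 4. In the shallow late control 3 it was 5014 against 3560 UMIs. There the endothelial sum was 653 CPM with 3 rule genes and 1395 CPM with 4, far above the stage medians below. The part of depth in these sums was not tested. In the late controls, the median endothelial sum was 41.3, 54.3 and 70.2 CPM in cells with 0, 1 and 2 of the rule genes, 84.6 CPM with 3, 209 CPM with 4, 815 CPM with 5, 1350 CPM with 6 and 1747 CPM with 7. In middle controls the median sum was 58.2 CPM in cells with 3 rule genes and 54.6 CPM with 4, below the 73.0 CPM of cells with none, and reached 399 CPM only with 5. In early controls it was 47.7 CPM with 3 and 47.4 CPM with 4, against 99.6 CPM with none. By these medians the sum was no higher with 3 or 4 rule genes than with none in early and middle controls. Single embryos could differ from the median, as in middle control 3, where the sum was 57.2 CPM with none, 58.2 CPM with 3 and 121 CPM with 4. Single genes could differ from the sum. Fli1, of this list, was at 5.85, 7.12 and 21.16 CPM with 4 rule genes in middle controls 1 to 3. With none it was at 0.400, 0.601 and 1.04 CPM. With 3 rule genes Fli1 was at 0.127, 1.03 and 3.79 CPM, which was lower than with none in middle control 1. Pecam1, also of this list, was higher with 4 rule genes than with none in each middle control. Most other genes of the list were not compared singly.

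Blood progenitor genes such as Lmo2, Gata2, Runx1 and Gata1 were higher with 4 rule genes than with none in middle and late controls. In the middle controls their median sum was 57.6 CPM with none, 40.9 CPM with 3, 133 CPM with 4 and 690 CPM with 5. With 4 rule genes it was 105, 133 and 441 CPM in middle controls 1 to 3, above the 51.1 to 59.2 CPM of their cells with none. In late controls it was 142 to 364 CPM with 4 and 18.8 to 45.7 CPM with none. Early controls were mixed: with 4 rule genes it was 39.2, 24.8, 117, 60.1 and 54.6 CPM in early controls 1 to 5, and with none 41.9, 39.9, 59.2, 36.5 and 43.2 CPM. Epiblast genes, which include the pluripotency factor Pou5f1, moved the other way, from 2512 CPM with 3 rule genes to 2097 CPM with 4 and 414 CPM with 5 in the middle controls, and from 2483 to 2121 CPM with 4 in the early controls. With 5 rule genes the epiblast sum was 1498, 409, 979, 393 and 284 CPM in early controls 1 to 5, which had 13, 1, 40, 2 and 3 such cells. Because of these levels the members are called Egfl7/Ramp2/Etv2 cells below, after the 3 rule genes most often detected in them. The 2100 cells with at least 5 rule genes are described beside them. That cut was chosen after these values were seen, so tests and fits given for it are alternatives only and support no conclusion.

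**Figure D1:**
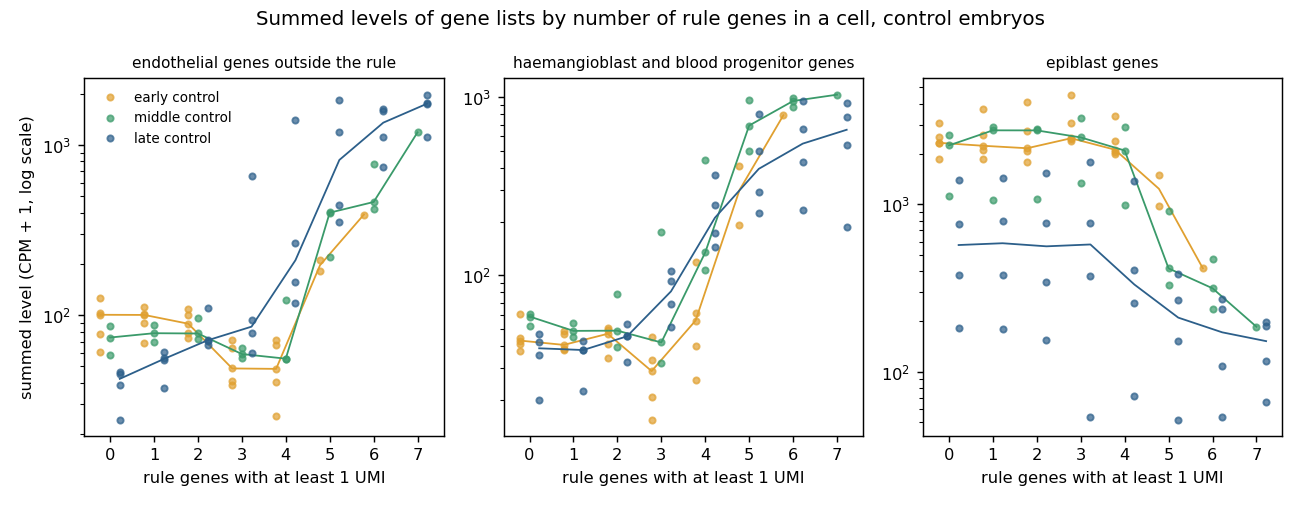
Summed level in each control embryo (CPM + 1, log axis) of 24 endothelial genes outside the rule, of blood progenitor genes and of epiblast genes, against the number of rule genes with at least 1 UMI in a cell; points are embryos and lines are medians of a stage. In late controls the endothelial median goes from 41.3 CPM with no rule gene to 1747 CPM with all 7, and in early and middle controls the median is lower in cells with 3 or 4 rule genes than in cells with none.

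Egfl7/Ramp2/Etv2 cells were counted in every embryo. They made up 17.1%, 24.3%, 18.1%, 22.4% and 21.3% of the kept cells of early controls 1 to 5, and 23.9% of the early KO. The shares were 15.9%, 15.5% and 17.8% in the middle controls and 18.2% in the middle KO. In the late controls they were 12.7%, 9.80%, 2.96% and 10.6%, and in the late KO 2.81%. The 2 lowest shares belonged to the 2 shallow libraries, and detection of a gene by 1 UMI depends on depth. Cells were then thinned to 2000 UMIs, and those with fewer were dropped. This left 10727 of 12853 cells in the late KO, 12329 of 14884 in late control 3 and 18714 of 22277 in late control 2. Among the cells left, the order of the stages was no longer seen. The share was 0.354% to 1.57% in early controls, 0.345% to 2.04% in middle controls and 1.27% to 3.28% in late controls. In the early, middle and late KO it was 0.903%, 0.428% and 1.10%. In the unthinned data the shares of cells with at least 5 rule genes were 1.04% to 1.69% in early controls, 1.502%, 1.47% and 4.27% in middle controls, and 2.29%, 3.37%, 1.24% and 3.06% in late controls.

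**Figure D2:**
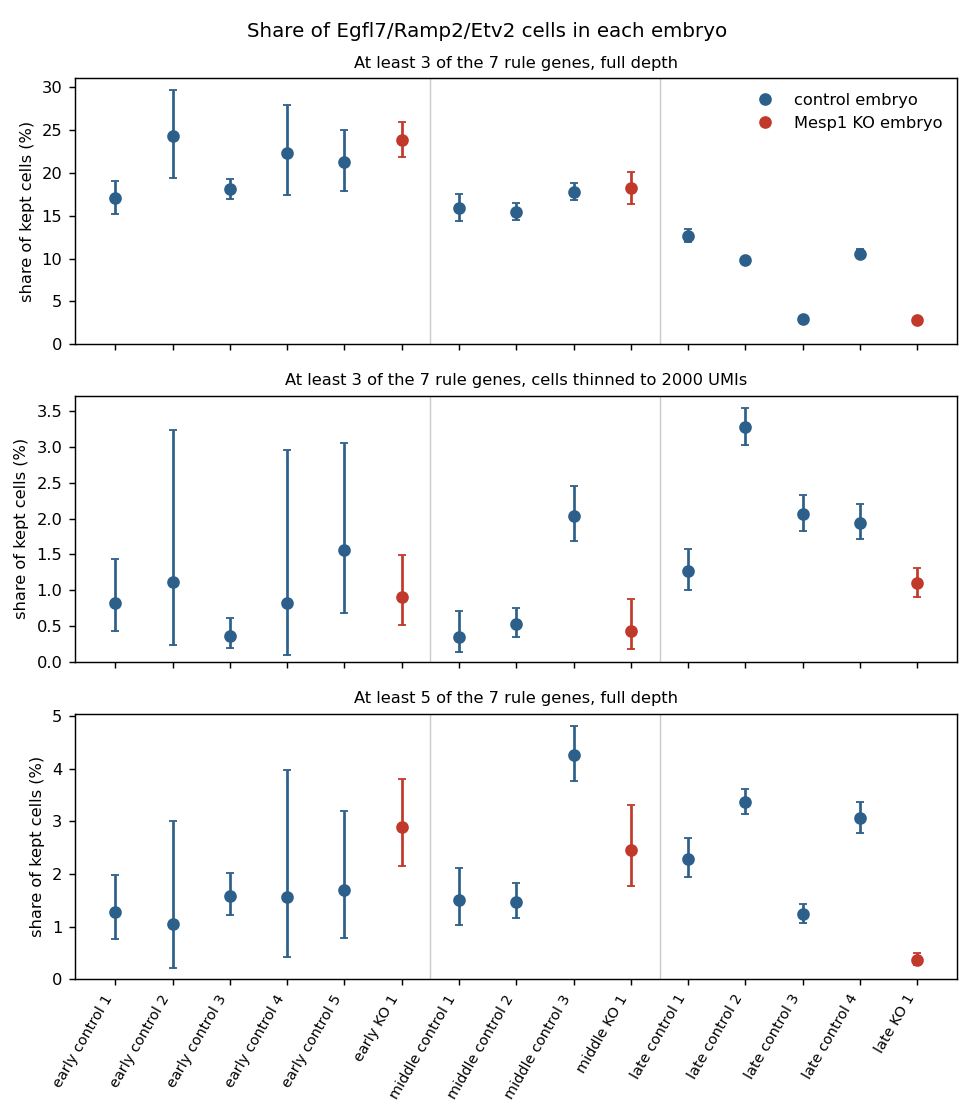
Share of kept cells (percent) in each of the 15 embryos that had at least 3 rule genes at full depth (top), at least 3 after thinning to 2000 UMIs (middle) and at least 5 at full depth (bottom). The middle panel leaves out cells with fewer than 2000 UMIs. Bars are 95% Clopper-Pearson intervals. At full depth the late KO (2.81%) and late control 3 (2.96%) are the lowest in the top panel, and after thinning late control 2 (3.28%) is the highest.

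No difference in the share was detected between KO and control embryos. Averaged over stages, the share was 14.96% in the KO embryos and 15.3% in controls, a difference of -0.378 percentage points (two-sided exact permutation of genotypes within stages, p = 0.875; 120 arrangements, of which the smallest possible p is 0.00833). After thinning the difference was -0.538 percentage points (exact permutation p = 0.233). Cells with at least 5 rule genes made up 2.89% of the early KO (95% Clopper-Pearson interval 2.15% to 3.81%), above its 5 controls, 2.45% of the middle KO, between its controls, and 0.373% of the late KO (0.275% to 0.495%), below its 4 controls; over stages the exact permutation p was 0.733. These intervals cover counting error only, and with 1 KO embryo a stage the test measures the spread between embryos. Without the late KO, whose depth was the lowest, the mean difference in the share of all Egfl7/Ramp2/Etv2 cells was 2.53 percentage points; without late control 1 it was 0.0287.

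Ai14 transcripts, which were not used by the rule, marked a larger fraction of Egfl7/Ramp2/Etv2 cells than of other cells in 13 of 13 embryos with the reporter. At least 1 Ai14 UMI was found in 46.5%, 55.7%, 44.1%, 43.9% and 41.6% of these cells in early controls 1 to 5, in 41.0% and 42.7% in middle controls 1 and 2, and in 52.6%, 24.04% and 57.6% in late controls 2 to 4. In the other cells of the same 13 embryos the fraction was 4.08% to 20.2%, and the ratio of both fractions was 1.82 to 5.89. The level in the 2 embryos without Ai14, 2.45% and 2.69%, gives the background in libraries without the reporter. In extra-embryonic ectoderm cells, outside the mesoderm, Ai14 was found in 0% to 8.91% (median 3.72%) in the 8 embryos with the reporter and at least 10 such cells. After thinning to 2000 UMIs the members remained above the other cells in 13 of 13 embryos, with ratios of 1.54 to 13.0. Among cells with at least 5 rule genes, Ai14 was found in 73.9% to 92.7% in the 8 deeper libraries with at least 10 such cells. In the neighboring mesoderm cells defined further on the fraction was 26.7% to 73.1% in the deeper libraries.

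In KO embryos Ai14 was found in 48.8% of the early, 52.1% of the middle and 13.3% of the late Egfl7/Ramp2/Etv2 cells. The early KO lay among its controls, the middle KO was above its 2 controls with the reporter, and the late KO was below its 3 controls, including 24.04% in late control 3 of the same experiment and similar depth. After thinning, the late KO had 6.36% and late control 3 had 7.66%. Over stages the KO mean was 38.1% and the control mean 44.3%, a difference of -6.25 percentage points (two-sided exact permutation p = 0.681; the smallest possible p is 0.0139 with 72 arrangements). Without the late KO the difference was 6.35, without the middle KO it was -14.5, without the early KO it was -10.6 and without late control 3 it was -9.70 percentage points. Without late control 4 it was -4.10 percentage points. A KO cell carries 2 copies of Cre and a control cell at most 1, so the copy number of Cre and the loss of Mesp1 cannot be told apart here.

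Transcripts of the Smarcd3-F6 reporter were found in a smaller fraction. At least 1 eGFP UMI was found in 6.09% to 31.4% of Egfl7/Ramp2/Etv2 cells and in 2.33% to 12.7% of other cells, and was more frequent in the former in 15 of 15 embryos; after thinning this held in 11 of 15. All embryos were described as carrying the transgene, so no library without it gives the background. In extra-embryonic ectoderm cells, outside the mesoderm, the fraction was 0% to 5.26% (median 3.51%) in the 10 embryos with at least 10 such cells, in which the members had 8.73% to 31.4%. Those ectoderm cells had a median of 15073 to 29090 UMIs, and the late KO and late control 3 had none, so their fractions in members (6.09% and 9.52%) have no such background beside them. Against the neighboring mesoderm cells the members had the higher fraction in 6 and the lower in 8 of 14 embryos with at least 10 of those cells. In late controls 1 to 4 it was 16.0%, 23.2%, 9.52% and 26.7% in members and 29.7%, 31.6%, 8.22% and 30.6% in that mesoderm. The fraction was 20.3%, 22.6% and 6.09% in the early, middle and late KO. Over stages the KO mean was 16.3% and the control mean 19.9% (difference -3.54 percentage points, exact permutation p = 0.467). Without the late KO the difference was 1.07, and without the middle KO it was -8.75 percentage points.

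**Figure D3:**
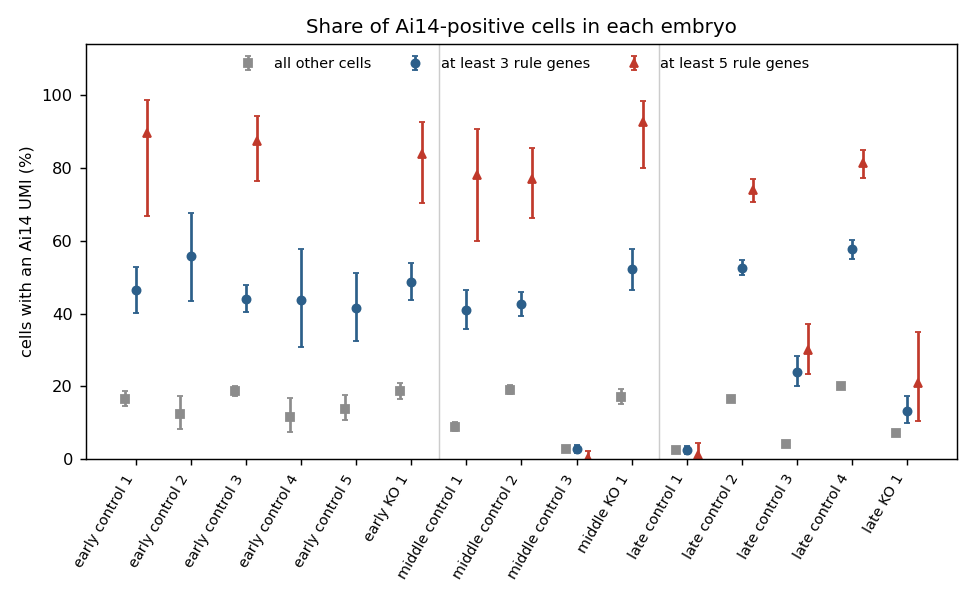
Percent of cells with at least 1 Ai14 UMI among Egfl7/Ramp2/Etv2 cells (at least 3 rule genes), among those with at least 5 rule genes and among all other cells of each embryo; bars are 95% Clopper-Pearson intervals. The Egfl7/Ramp2/Etv2 cells lie above other cells in all 13 embryos with the reporter, and show a background of 2.45% and 2.69% in the 2 embryos without it.

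Egfl7/Ramp2/Etv2 cells of the late controls, summed together, had higher levels of most listed endothelial genes than the other cells, in sums that rest largely on cells with more than 3 rule genes. In the 2473 late control cells with exactly 3, the endothelial sum was 59.2, 92.1, 653 and 77.2 CPM in late controls 1 to 4. Counts were summed per embryo over the members and over all other cells, and compared in the 4 late controls with edgeR's quasi-likelihood fit. Since the cells had been sorted on these same counts, the contrast describes the members and is no independent test. At an adjusted p under 0.05, 722 of 16759 genes were higher (4.31%) and 957 lower (5.71%). Of 24 endothelial genes outside the rule, 21 were higher and 0 lower, with a median log2 difference of 4.36 against -0.04 over all genes tested; Rasip1, Robo4 and Sox17 did not pass. Nothing is read from that count, because the rule fixed the contrast.

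The genes named here were chosen at a mean of at least 5 CPM, and scarcer genes such as Emcn (log2 difference 6.79) and Myct1 (6.69) differed more. Icam2, an adhesion molecule of endothelium and platelets, averaged 36.9 CPM in members and 0.296 CPM in other cells (log2 difference 6.49). The protease inhibitor-like gene Ctla2a averaged 70.2 and 0.509 CPM (6.36). Sox18, a transcription factor of vessel formation, averaged 53.6 and 0.643 CPM (6.05). The other genes named by the same rule were Ctla2b (6.46), Clec1b (6.33), Gpr182 (6.32), Samsn1 (6.25) and Oit3 (6.02), of which Clec1b is a lectin receptor best known from platelets. Among the endothelial list, the angiopoietin receptor Tek (3.67), the ETS factor Fli1 (4.64), the junction protein Esam (5.68), the TGF-beta co-receptor Eng (4.27) and Pecam1 (3.57) were higher as well.

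The levels behind these means varied between the late controls. Pecam1 was at 7.37, 33.1, 49.4 and 18.04 CPM in Egfl7/Ramp2/Etv2 cells of late controls 1 to 4, and at 0.84 to 2.54 CPM in the other cells. Fli1 was at 21.7, 59.5, 86.7 and 44.5 CPM in the members and 1.45 to 2.78 CPM in other cells, and Icam2 at 3.03, 38.4, 90.2 and 15.8 CPM against 0.09 to 0.54 CPM. Members were above other cells without overlap for these 3 genes and for 3.59% of all genes, in a contrast that the choice of cells fixed. Late control 1 was lowest and late control 3 highest for each. At 12.7% of cells against 2.96%, late control 1 also had the widest and late control 3 the narrowest choice of members, and the part of this in the levels was not tested.

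Blood and signaling genes were mixed, in the same contrast that the choice of cells fixed, where 4.31% of all genes were higher and 5.71% lower. Of 15 blood progenitor genes tested, 6 were higher in members and 0 lower, with a median log2 difference of 1.21; Gata2 (2.30), a GATA factor of blood progenitors, and Lmo2 (1.80), which bridges Tal1 and GATA factors, were among the 6. Of 10 VEGF pathway genes 5 were higher and 0 lower, including the receptors Flt4 (4.45) and Flt1 (3.05). Of 15 Notch pathway genes 2 were higher and 2 lower, and the arterial ligand Dll4 was among those higher (4.36). The cells above the globin limit, which the rule left out, had a blood progenitor sum of 1292 to 1980 CPM and an endothelial sum of 72.7 to 173 CPM in the middle and late control libraries that held enough of them. Those cells stayed among the other cells of this contrast, with 51, 379, 1 and 74 of them in late controls 1 to 4. Their part in the blood gene differences was not tested.

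Genes of the visceral endoderm, the nutritive layer around the epiblast, were lower in Egfl7/Ramp2/Etv2 cells of late controls. The fit called 9 of 9 lower, with a median log2 difference of -2.03, where 5.71% of all genes were lower and 4.31% higher. Ttr, the thyroid hormone carrier, averaged 220 CPM in members and 930 CPM in other cells (log2 difference -2.25). The apolipoprotein genes Apoc2 (-2.34), Apoa1 (-2.26) and Apom (-2.11), S100g (-2.18), the retinol carrier Rbp4 (-2.14), Fxyd2 (-2.12) and the cilia factor Foxj1 (-2.37) completed the largest decreases among named genes. Those had passed the threshold at a mean of at least 5 CPM, and the lowest log2 difference over all genes tested was -6.61. Of 5 definitive endoderm genes 4 were lower, and of 14 streak and nascent mesoderm genes 4 were lower and 0 higher.

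The size of these lists rested on single libraries. Without late control 4 the number of genes past the threshold was 69, without late control 2 it was 112, and without late control 3, the shallow library, it was 2698. The sum of the 24 endothelial genes was higher in members than in other cells in each late control all the same: 158, 654, 1384 and 405 CPM in members of late controls 1 to 4 against 30.2 to 62.5 CPM in other cells.

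Neighboring mesoderm was used as a narrower comparison. A set of 9095 cells with transcripts of lateral plate and extra-embryonic mesoderm was defined by at least 1 UMI of at least 4 of Hand1, Foxf1, Bmp4, Msx2, Pmp22, Ahnak and Tbx20, fewer globins than the limit, and not being members. Against them, 1351 of 15624 genes were higher in Egfl7/Ramp2/Etv2 cells (8.65%) and 1151 lower (7.37%), in a contrast that both choices of cells fixed. Without late control 4 the number past the threshold was 314 and without late control 2 it was 375, of 2502. Endothelial genes were higher for 23 of 24 (median log2 difference 4.41, against 0.01 over all genes), all but Clec14a, and blood progenitor genes for 15 of 15 (3.77).

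Among genes past the threshold with a mean of at least 5 CPM, Clec1b (9.54), Ctla2a (8.85), Icam2 (8.09) and the receptor Tie1 (7.5) had the largest increases over this mesoderm, followed by F2rl3 (7.002), Gpr182 (6.97), Esam (6.77) and the tight junction gene Cldn5 (6.76). Within the same limits the genes furthest below this mesoderm were Csrp3 (-3.92), Cryab and the cardiac troponin Tnnt2 (-2.82 each), Postn (-2.78), Acta2 (-2.77) and Nebl (-2.72), with Sdpr (-3.02) and Tac2 (-2.60). Of 9 cardiac genes 6 were lower and 0 higher, with a median of -2.05, where 7.37% of all genes were lower. The VEGF co-receptor Nrp1 (-1.25) and the mesoderm factor Msx1 (-1.58) were also lower. Epiblast genes were higher for 5 of 7 and visceral endoderm genes for 8 of 9, where 8.65% of all genes were higher. In cells with at least 5 rule genes the log2 difference of Ttr, Apoa1, Apob, Afp and Utf1 against the same mesoderm was -0.26, -0.36, -0.32, -0.38 and -1.59.

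Across stages, the same rule picked cells with different transcripts. In early controls 1 to 5 Pecam1 was at 0, 0, 0.90, 0 and 0.67 CPM in Egfl7/Ramp2/Etv2 cells, in middle controls at 0.64, 1.66 and 14.1 CPM, and in late controls at 7.37 to 49.4 CPM. Cdh5, a rule gene, was at 0 to 0.88 CPM in early controls, at 2.36, 0.81 and 7.56 CPM in middle controls and at 5.46, 50.6, 90.6 and 17.9 CPM in late controls. Etv2 and Kdr are rule genes, whose own UMIs chose the cells at every stage. Etv2 was at 50.9 to 159 CPM in early controls, 53.1 to 90.0 CPM in middle controls and 100.9 to 200 CPM in late controls, and Kdr at 54.3 to 135, 39.0 to 70.9 and 50.7 to 229 CPM.

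**Figure D4:**
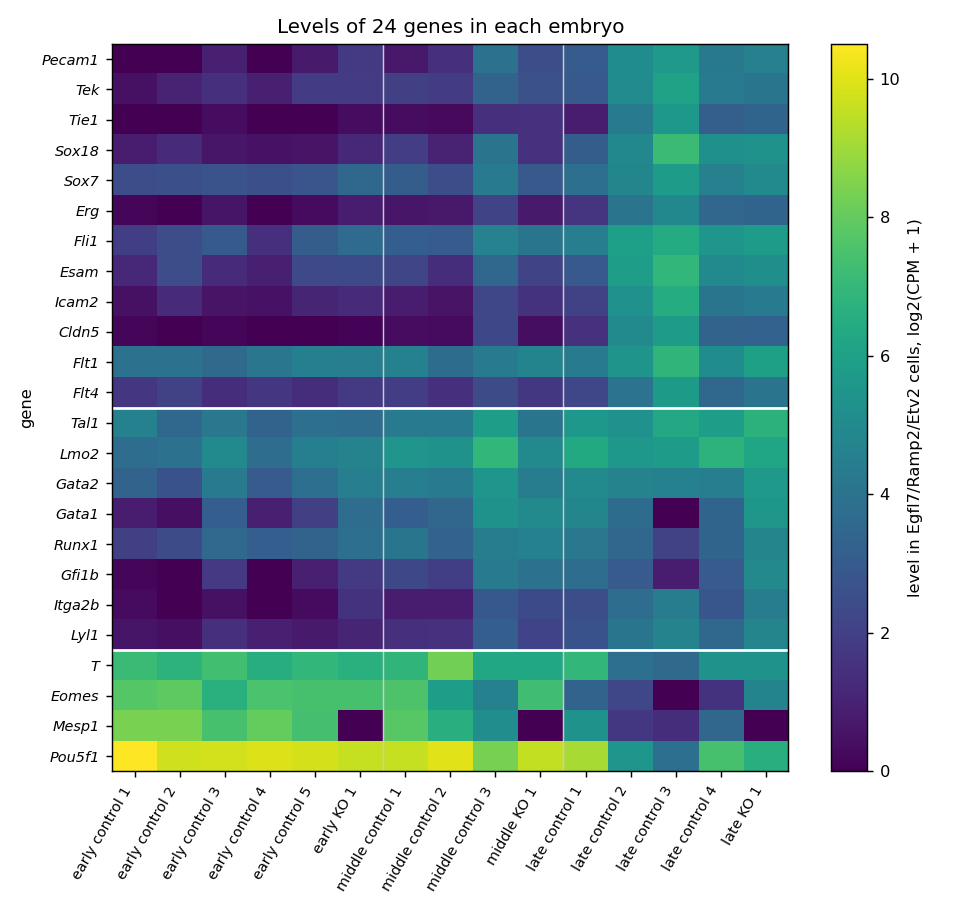
Heat map of the level, as log2(CPM + 1), of 24 genes (rows) in Egfl7/Ramp2/Etv2 cells of each embryo (columns, by stage), with endothelial genes at the top, blood progenitor genes in the middle and streak or epiblast genes at the bottom. Pecam1 is at most 0.90 CPM in early controls and reaches 49.4 CPM in late controls, and Mesp1 is at 0 in the KO embryos.

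Between late and middle controls all 24 endothelial genes outside the rule had a positive log2 difference, with a median of 3.19 against 0.00 over all genes tested, but none passed the test. Of 14978 genes 0 were higher (0%) and 0 lower (0%) at an adjusted p under 0.05 in edgeR's quasi-likelihood test, with 1635 at an unadjusted p under 0.05, while DESeq2 called 204 higher and 48 lower. Without late control 1 edgeR called 376 genes and without middle control 3 it called 24. Tie1 had a log2 difference of 4.86, Icam2 of 4.74, Esam of 3.65, the angiopoietin receptor Tek of 2.90 and Pecam1 of 2.49 (adjusted p = 0.371), and for each of them a middle and a late control overlapped. The overlap came from late control 1 (late E7.5) and middle control 3 (early E7.5): Tek was at 6.54 CPM in the first and 9.24 CPM in the second.

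Streak genes had a negative log2 difference between late and middle controls for 14 of 14 genes (median -2.51) and epiblast genes for 7 of 7 (-1.72), with none past the threshold. Eomes, a T-box factor of the streak, was at 190, 56.0 and 23.3 CPM in the middle controls and at 9.27, 3.66, 0 and 1.92 CPM in the late controls (log2 difference -4.33, adjusted p = 0.259 by edgeR), without overlap; late controls were below every middle control for 6.81% of all genes. Pou5f1 was at 754, 1039 and 328 CPM in middle controls and at 556, 45.4, 13.3 and 172 CPM in late controls, which overlapped. Blood progenitor genes had a median difference of -0.08, with 6 of 14 positive.

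In the cells with at least 5 rule genes, blood progenitor transcripts were present in early embryos, where several endothelial genes were at or near 0. In early controls Lmo2 was at 89.6 to 236 CPM in them and in middle controls at 269 to 364 CPM, while Pecam1 was at 0 to 9.30 CPM in early controls and at 25.9 to 82.7 CPM in late controls. Cldn5 was at most 1.83 CPM in early controls and at 7.41 to 84.6 CPM in late controls. Emcn, a sialomucin of venous and capillary endothelium, was at 0 in early and middle controls and at 0, 24.1, 28.0 and 7.80 CPM in late controls. The blood progenitor sum was 251 to 599 CPM in early controls, 722 to 964 CPM in middle controls and 220 to 871 CPM in late controls, and the endothelial sum 239 to 639, 318 to 655 and 599 to 1776 CPM. Early controls contributed 3 to 63 such cells each, so their levels rest on few cells.

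A small set of genes had higher levels in Egfl7/Ramp2/Etv2 cells of the KO embryos. Whether these differences are particular to these cells was not tested. In the edgeR test of KO against control over the 3 stages, 7 of 13759 genes were higher (0.0509%) and 0 were lower (0%). At an unadjusted p under 0.05 there were 1719 genes. DESeq2 called 76 higher and 233 lower, so the balance of higher and lower calls depended on the tool. It kept 6 of the 7 edgeR calls, and all 7 had the same sign in both fits. The 7 genes were Car2, Ndufa4l2, Asb4, Prc1, Clcn3, Ablim1 and Cytl1, and in each of them every KO embryo was above every control embryo of its stage. A KO embryo above all its controls in all 3 stages was found for 1.17% of genes, and below all of them for 2.44%. Mesp1 itself, with 0 UMIs in the KO embryos, had an adjusted p of 0.0506 in the same edgeR test and missed the threshold. By DESeq2 its adjusted p was 5.91e-16.

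Car2, a carbonic anhydrase that hydrates carbon dioxide, was at 226, 189, 132, 182 and 182 CPM in early controls 1 to 5 and at 397 CPM in the early KO. In the middle controls it was at 179, 113 and 138 CPM and in the middle KO at 412 CPM, and in the late controls at 97.3, 72.4, 76.5 and 68.5 CPM and in the late KO at 152 CPM. The log2 fold change over stages was 1.35 ± 0.17 (SE; edgeR adjusted p = 0.00808). Within the experiment that the early and the late KO each shared with controls of its stage, the difference was 1.12 in early and 0.99 in late embryos. Those controls were at E6.0 and late E6.0 for the early KO at E6.5, and at E7.75 for the late KO at late E7.5. The middle KO was of experiment 8 and all middle controls of experiment 7, so genotype and experiment cannot be told apart at that stage.

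Ndufa4l2, a mitochondrial protein known as a target of hypoxia-inducible factor, was at 16.3 to 29.0 CPM in early controls and 44.6 CPM in the early KO. It was at 13.4, 12.1 and 8.04 CPM in the middle controls against 48.2 CPM in the middle KO, and at 6.59, 13.2, 15.7 and 8.24 CPM in the late controls against 65.1 CPM in the late KO. The log2 fold change was 2.16 ± 0.34 (SE; edgeR adjusted p = 0.0375), and within experiments the difference was 0.73 in early and 2.05 in late embryos.

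Asb4, an adaptor of ubiquitin ligases known from the embryonic vascular lineage, was at 18.5 to 58.4 CPM in early controls and 93.7 CPM in the early KO. It was at 39.8, 39.9 and 18.2 CPM in middle controls and 100.9 CPM in the middle KO, and at 22.3, 25.3, 13.3 and 19.8 CPM in late controls and 60.4 CPM in the late KO (log2 fold change 1.63 ± 0.26 SE, edgeR adjusted p = 0.0375). Its difference within experiments was 1.49 in early and 2.18 in late embryos. The study also reports Asb4 as higher in KO cells of a posterior lateral plate mesoderm cluster of late embryos.

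The other genes changed less or were scarce. Prc1, which bundles microtubules in cytokinesis, was at 89.9 CPM in the early KO, 105 CPM in the middle KO, 121 CPM in the late KO and at 41.6 to 83.1 CPM in controls (0.90 ± 0.15 SE, edgeR adjusted p = 0.0457). Prc1 starts at chr7:80294201, near Mesp1 on the same chromosome, where Cre is inserted. For Prc1 the inserted or linked DNA and the loss of Mesp1 cannot be told apart. Clcn3, a chloride and proton exchanger of endosomes, was at 65.6, 65.6 and 56.8 CPM in the KO embryos and at 33.9 to 52.0 CPM in controls (0.72 ± 0.11, edgeR adjusted p = 0.0297). Ablim1, an actin-binding protein, was at 19.0, 23.3 and 24.5 CPM in the KO embryos and at 7.98 to 13.9 CPM in controls (1.17 ± 0.16, edgeR adjusted p = 0.0156). For these 3 genes the KO embryos were above the controls of every stage, as were 0.291% of all genes tested; the 3 were named because they had passed the test. Cytl1, a secreted cytokine-like protein, was at 2.36, 2.89 and 1.56 CPM in the KO embryos and at 0 to 0.51 CPM in controls (2.91 ± 0.36, edgeR adjusted p = 0.00808). The value of the late KO equals the floor of 3 counts in that library. Cytl1 fell under the minimum level set for naming genes and is named because the number of called genes is small.

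**Figure D5:**
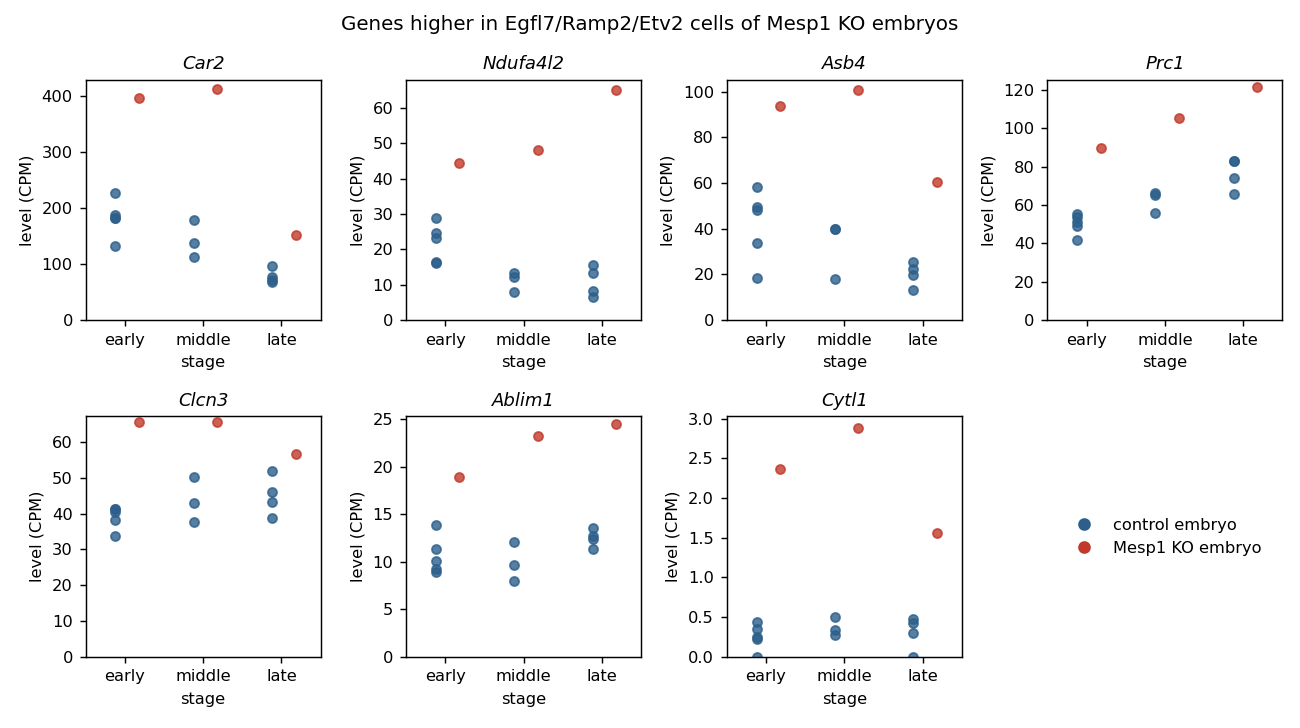
Level (CPM, linear axes starting at 0) of the 7 genes past the threshold in the KO comparison, in Egfl7/Ramp2/Etv2 cells of each embryo by stage; points are embryos. Each KO embryo lies above all control embryos of its stage, as for Car2 at 397, 412 and 152 CPM.

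These calls depended on how the cells and controls were chosen. With only the controls of the KO embryos' own ages none of the 7 genes passed, with log2 fold changes of 0.79 to 2.85 against 0.72 to 2.91 in the comparison itself. This age-matched fit held 7 embryos, against 15 in the comparison itself, and the parts of age and of the lost embryos were not told apart. With the experiment added to the model none passed, with values of 0.69 to 3.27. After thinning 5 of the 7 were tested and none passed, with values of 0.46 to 2.31. That fit held only 10 embryos. The middle KO, with 7 thinned members, and some controls fell under the minimum of 10 members. The parts of depth and of the lost embryos were not told apart. Of the 6 that could be tested in cells with at least 4 rule genes 2 passed (0.80 to 1.96), and in cells with at least 5 rule genes 0 of 6 passed (0.18 to 1.49). The latter fit held 12 embryos, without early controls 2, 4 and 5. The log2 fold change was positive in each of these cases. Without the middle KO or without the late KO no gene passed, and without late control 3 the number was 15; leaving out early control 1, 3, 4 or 5, early control 2, the early KO, middle control 1 or 2 or late control 4 gave 3 to 14 genes.

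Neither the endothelial nor the blood genes passed in the KO comparison. The 22 endothelial genes tested were split, 11 positive and 11 negative, with a median log2 fold change of -0.00 and -0.02 over all genes. Their sum was 133 CPM in the early KO, above the 51.0 to 99.4 CPM of its 5 controls, and 126 CPM in the middle KO, where the controls were at 99.2, 78.6 and 195 CPM. In the early KO 10 of the 22 were above every early control, against 14.2% of all genes, and the sum in its other cells was also above that of the controls, at 168 CPM against 69.7 to 110 CPM. All 14 blood progenitor genes tested had a positive log2 fold change, with a median of 0.99 and the lowest at 0.01 (Lmo2), but 0 of 14 passed. The largest were the GATA factor Gata1 at 1.75 (edgeR adjusted p = 0.324), Ikzf1 at 1.67 (0.327), the repressor Gfi1b at 1.60 (0.342), the integrin Itga2b at 1.52 (0.380) and Runx1, the factor of definitive blood, at 1.16 (0.260).

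Gata1 was at 0.75, 0.36, 7.73, 0.88 and 2.92 CPM in the early controls and 12.5 CPM in the early KO. It was at 7.90, 10.1 and 41.1 CPM in the middle controls and 31.5 CPM in the middle KO, and at 27.5, 12.2, 0 and 9.34 CPM in the late controls and 45.8 CPM in the late KO. The KO was thus the highest embryo of the early and late stages but not of the middle stage. Runx1 was at 3.02 to 11.1 CPM in early controls and 13.4 CPM in the KO, at 16.2, 8.83 and 20.5 CPM in middle controls and 23.2 CPM in the KO, and at 17.6, 9.94, 3.14 and 9.57 CPM in late controls and 27.6 CPM in the KO, above the controls at each stage. Of the 14 blood progenitor genes, 9 were above every control in the early KO, 1 in the middle KO, 10 in the late KO and 1 in all 3. Over all 13759 genes the share above every control was 14.2% in the early KO, 20.7% in the middle KO, 10.3% in the late KO and 1.17% in all 3. Primitive erythroid genes moved with them, with 8 of 9 positive (median 0.87), and their part in the result was not tested. In the early KO 8 of 10 extra-embryonic ectoderm genes and 4 of 6 parietal endoderm genes were also above every control, and none of either list in the middle or late KO.

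Other lists also gave no call. Of 9 VEGF pathway genes 3 were positive and 6 negative (median -0.14), and of 13 Notch pathway genes 5 were positive and 8 negative (median -0.37). The Notch ligand Dll1, chosen after its values were seen, was below every control at each stage, as were 2.44% of all genes. It was at 1.79 CPM in the early KO, 2.49 CPM in the middle KO and 1.04 CPM in the late KO against 4.78 to 23.8 CPM in controls (log2 fold change -2.42, edgeR adjusted p = 0.161). The late KO value lies under the floor of 3 counts in that library, 1.56 CPM. Epiblast genes had a median of -0.44, with 6 of 7 negative, cardiac genes a median of -0.69, with 7 of 8 negative, and visceral endoderm genes a median of -0.53, with 7 of 9 negative. Against late control 3, of the same experiment, the late KO had the opposite direction for epiblast and visceral endoderm genes, with 7 of 7 and 9 of 9 higher (median log2 difference 1.91 and 1.99), where 49.1% of all genes were higher. Pou5f1 was at 13.3 CPM in late control 3 and differed by 2.81 from it in the late KO, but by -1.07 from the mean of all late controls. Positive medians were found for definitive endoderm (0.50, 3 of 5 positive), parietal endoderm (0.36, 4 of 6), extra-embryonic ectoderm (0.25, 7 of 10) and lateral plate and extra-embryonic mesoderm genes (0.15, 8 of 12).

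Streak and nascent mesoderm genes, a list that includes Mesp1 itself, had a median log2 fold change of 0.63, with 9 of 14 positive and 0 of 14 past the threshold. None was above every control in the early KO, 7 of 14 were in the middle KO and 6 of 14 in the late KO, against 14.2%, 20.7% and 10.3% of all genes. In the late KO their median was 1.04. Tdgf1, a co-receptor of Nodal, was at 42.2 CPM in the late KO and at 2.17, 0.38, 0 and 0.10 CPM in the late controls (log2 fold change 6.30, edgeR adjusted p = 0.356). Eomes was at 25.5 CPM in the late KO, against 0 to 9.27 CPM. In the middle KO Tdgf1 was at 484 CPM, against 438, 83.4 and 0.57 CPM in its controls, and in the early KO at 532 CPM, among its controls at 178 to 1011 CPM.

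In the late KO alone 0 of 14978 genes were higher (0%) and 0 lower (0%) in edgeR's test against the 4 late controls, which the comparison over stages also used. At an unadjusted p under 0.05 there were 1390 genes, DESeq2 called 3 higher and 1 lower, and without late control 3 edgeR called 196 higher and 54 lower. With 1 late KO embryo, the spread in this fit came from the groups with more than 1 embryo. On simulated counts it recovered 1% of genes changed 2-fold and 12% of those changed 4-fold. The lack of calls therefore says little about the genes. The median log2 fold change over all genes was -0.15, and -0.55 without a filter on low counts. Blood progenitor genes had a median of 1.44 with 14 of 14 positive, and endothelial genes a median of -0.48 with 7 of 24 positive. The higher blood progenitor sum of the late KO (410 CPM, against 198 to 267 CPM) was seen in cells near the limit of the rule. With 3 rule genes it was 408 CPM, against 49.9 to 104 CPM in the late controls, while with at least 5 rule genes it was 355 CPM, inside the 220 to 871 CPM of the controls.

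Among blood genes of the late KO the log2 fold change was 2.65 for Ikzf1 (edgeR adjusted p = 0.495), 2.48 for Gfi1b, 1.84 for Runx1 (0.460) and 1.39 for Gata2. Tal1, a rule gene, was at 108 CPM in the late KO and at 47.4, 38.9, 80.0 and 56.0 CPM in its controls. Pecam1, Sox18 and the endothelial sum of the late KO lay within the range of its controls, with Pecam1 at 22.9 CPM, Sox18 at 40.6 CPM against 7.63, 28.7, 141 and 37.4 CPM, and the endothelial sum at 471 CPM against 158, 654, 1384 and 405 CPM. Of the 22 endothelial genes tested over stages, 0 were above and 1 was below every late control, where 10.3% and 37.0% of all genes were. Against late control 3 alone, the control of the same experiment and similar depth but of E7.75, 24 of 24 endothelial genes were lower in the late KO (median log2 difference -1.89), where 48.0% of all genes were lower. Pecam1 differed by -1.11, Sox18 by -1.79 and Tek by -2.02. With 1 embryo on each side these differences have no replicate check. In the early experiment, with 2 controls of E6.0 and late E6.0, 19 of 24 endothelial genes were higher in the early KO (median 0.75), where 61.5% of all genes were higher. In the 48 late KO cells with at least 5 rule genes the endothelial sum was 904 CPM, against 599 to 1776 CPM in the late controls, and Gata1 was at 21.7 CPM, against 0 to 69.1 CPM. The late KO was also the library with the fewest UMIs per member, and the part of depth in these levels was not tested.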

How the data were processed

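The authors deposited filtered UMI counts per gene and cell for 15 libraries made with 10x Genomics 5′ chemistry; per the labels and the submitters' processing notes, Cell Ranger 3.0.2 was used with the mm10 genome and the reporter transcripts. Of 99474 deposited barcodes, 93701 passed the limits on mitochondrial share, UMIs and genes. Counts were summed per embryo over members, so that embryos, not cells, were replicates. CPM is per 1000000 UMIs of such a sum and was not compared between genes. Genes were tested with edgeR 4.0.16 (R 4.3.3; TMM, filterByExpr, quasi-likelihood, Benjamini-Hochberg adjustment at 0.05) and, as an alternative, DESeq2 1.42.0; an embryo entered with at least 10 members. The SE of a log2 fold change was worked back from edgeR's test, as its size divided by the square root of the F statistic. Shares were compared by exact permutation (scipy 1.17.1) of genotypes within stages. Doublets were scored with simulated pairs (0.8% per 1000 barcodes, 30 principal components). They were kept in the main results and left out in an alternative. Alternatives also thinned cells to 2000 UMIs, without the cells that held fewer. Others changed the filters, the number of rule genes, the controls and the covariates, or left out each embryo. The low depth of 2 libraries limits detection. Intervals are 95% Clopper-Pearson and cover counting error only.

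The members and gene lists were chosen with earlier results of these data known. Named genes were, per comparison, up to 8 per direction with the largest log2 difference among those with an adjusted p under 0.05, a mean of at least 5 CPM and the same direction in every KO embryo or pair. Of each of 19 lists, up to 6 members that passed or otherwise up to 4 with the highest mean were added, with the 7 rule genes and Mesp1. The study describes its controls as littermates of KO embryos, but which libraries shared a litter is not given in the sources used here, and p-values measure the spread between these embryos. Between 105 pairs of libraries, at most 451 barcode sequences were shared (median 15), and 9788 kept cells had a barcode found in more than 1 library. The fits were checked on simulated counts: in the KO comparison 40% of genes changed 2-fold and 71% of those changed 4-fold were recovered, in late against middle controls 21% and 63%, and in the late KO alone 1% and 12%. Genes left unchanged in the simulation were called 5, 1 and 0 times in these comparisons, and 19 times for members against other cells and 8 times against the mesoderm.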

Additional observations from a re-analysis of the deposited data

Results flagged for a closer look

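Among 89 groups of 4 or 5 embryos examined for 1 embryo far from the rest, of which chance alone would pick about 1 in 20, early control 1 stood apart for epiblast genes. Their summed level in its Egfl7/Ramp2/Etv2 cells was 4101 CPM, while the next highest early control was at 2720 CPM. Pou5f1, the pluripotency factor, was at 1448 CPM in the same embryo and at 978 CPM in the next. In 45 measures the direction of the KO against the controls of its stage was compared between stages, and the KO lay beyond all its controls in opposite directions for 5. The share of Egfl7/Ramp2/Etv2 cells was 18.2% in the middle KO, above its controls, and 2.81% in the late KO, below them. For cells with at least 5 rule genes it was 2.89% in the early KO, above, and 0.373% in the late KO, below. Cells with Ai14 were 52.1% of members in the middle KO, above, and 13.3% in the late KO, below. Cells with eGFP were 22.6% in the middle KO, above, and 6.09% in the late KO, below. Tal1 was at 15.9 CPM in the middle KO, below its controls, and at 108 CPM in the late KO, above. These differences between stages were not tested, since each stage had 1 KO embryo.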

How the results depend on the processing

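With 1 KO embryo a stage and 2 shallow libraries, depth limits the detection of rule genes and of low transcripts. The KO minus control difference in the share of members (-0.378 percentage points) kept its sign and its side of the threshold under 6 of 8 alternatives; it was 0.344 with at most 6300 genes per cell and 0.0207 with age-matched controls, and -2.18 to 2.53 when each embryo was left out (2.53 without the late KO and 0.0287 without late control 1). For Ai14 the range when embryos were left out was -14.5 to 6.35 (6.35 without the late KO), and for eGFP -8.75 to 1.07 (1.07 without the late KO). The KO comparison of 7 genes gave 309 with DESeq2, 4 with at least 4 rule genes, 1 with at least 5 (a cut added after seeing the data), and 0 after thinning, with the experiment as covariate or with age-matched controls, and 0 to 15 when embryos were left out. The set of embryos changed too: the thinned fit held 10, without the middle KO, the fit with at least 5 rule genes held 12 and the age-matched fit held 7. The late KO gave 4 genes with DESeq2 and 0 to 250 when embryos were left out, and late against middle controls 252 with DESeq2 and 0 to 376. Leaving out the late KO embryo was not run for the late KO comparison, which then has no KO. Members against other cells (1679 genes) gave 3129 with DESeq2, 5039 and 6172 with at least 4 and 5 rule genes, 3202 after thinning, 4836 with every control embryo and 69 to 2698 when embryos were left out. Members against the mesoderm (2502 genes) gave 4813 with at least 5 rule genes, 1383 after thinning and 314 to 3250 when embryos were left out. The cause of these changes was not tested. Replicate numbers were shared only as numbers (correlations of deviations -0.32 to 0.36); the fit with the replicate block called 6 genes in the KO comparison (4 higher, 2 lower) and 0 in both others.

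Of 171 values of the 7 genes named in the KO comparison, 84 no longer passed and none reversed. For members against other cells, 128 of 700 no longer passed, and Ascl2 after thinning (-1.92) and Thbd with every control embryo (-0.10) reversed. Against the mesoderm, 127 of 747 no longer passed. With at least 4 rule genes the log2 difference reversed for Afp (-0.28), Elf5 (-0.48), Foxa2 (-0.018), Srgn (-0.072) and Ttr (-0.00102). With at least 5 it reversed for Afp (-0.38), Amn (-0.18), Apoa1 (-0.36), Apoa4 (-0.33), Apob (-0.32), Cdh13 (-0.50), Elf5 (-1.40), Foxa2 (-0.67), Fst (-1.46), Pim2 (-0.074), Slc7a3 (-0.42), Sox2 (-0.69), Ttr (-0.26) and Utf1 (-1.59).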
